A study of Drosophila melanogaster with 2 samples.

Results

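The Copia-type LTR retrotransposons copia, 1731 and Copia-1_DYa-I were described by the piRNA reads counted on them in Drosophila melanogaster ovaries. They were chosen by name, as 3 of the 1364 features listed in at least 1 of the piRNA tables, and all 3 were present in both libraries. The libraries held small RNAs of 18 to 30 nt from ovaries of females 3 to 5 days old. The control, pelo1/+, carried the allele pelo1 over a normal copy of pelo, and peloPB60/1 carried the alleles PB60 and 1, so pelo1 was present in both groups. The gene pelo (pelota) encodes a ribosome rescue factor that female germline stem cells require. Each genotype was represented by 1 library, so no difference below has a replicate check and no p-value was computed. The intervals are exact 95% intervals and cover counting error only.

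Copia-type elements copy themselves through RNA. They carry long terminal repeats (LTRs) at both ends of an internal part that encodes Gag and Pol proteins, and integrase precedes reverse transcriptase in their Pol, the reverse of the order in gypsy-type elements. copia gave this superfamily its name, and its insertion in white causes the white-apricot eye colour. 1731 was first noted in cultured fly cells as an element whose transcripts drop after treatment with the moulting hormone ecdysone. In the name Copia-1_DYa-I, the tag DYa is the one used for D. yakuba sequences and I marks the internal part of the element. The reads counted on this feature came from D. melanogaster ovaries, and which sequences gave rise to them was not examined. piRNAs are small RNAs that guide Piwi proteins to transposon transcripts, and the germline and the somatic follicle cells of the ovary each make their own. The comparison asked how these small RNAs differ between the pelo genotypes.

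Depth was 5229331 piRNA reads over 1127 features for pelo1/+ and 4872519 over 1097 for peloPB60/1. Levels are in CPM, a feature's reads in every 1000000 of its table. The transcript of pelo is not measured here, so the genotypes have no check in these data. Ovarian identity was checked in the matching miRNA tables. The follicle cell miRNAs miR-989 and miR-318 were at 173893 and 9252 CPM in pelo1/+ and at 443523 and 8912 CPM in peloPB60/1, and the germline miRNA miR-184 was at 32758 and 37247 CPM. The follicle cell miRNA miR-994 was at 85458 and 6602 CPM, and miR-1, the miRNA of muscle such as the ovarian sheath, at 2218 and 6899 CPM. miR-133, also of muscle, had 12 reads in each library, and the neural miR-124 had 11 and 36 reads. miR-9a, which epithelia and neural precursors express, was at 125 and 488 CPM. The part of cell composition in the differences below was not tested. In whole ovaries, fewer cells of a type and less RNA per cell cannot be told apart.

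copia and 1731 took a larger share of piRNA reads in peloPB60/1 than in pelo1/+, and Copia-1_DYa-I took a smaller one. copia had 16096 reads in pelo1/+ and 21785 in peloPB60/1, which is 3078 and 4471 CPM. Its share was 0.308% (95% interval 0.303 to 0.313) and 0.447% (0.441 to 0.453), so the counting intervals lay apart. Its level in peloPB60/1 over that in pelo1/+ gave a log2 ratio of 0.54 (95% interval 0.51 to 0.57), a ratio of 1.45. For 1731, 18945 and 27915 reads gave 3623 and 5729 CPM, or 0.362% (0.357 to 0.367) and 0.573% (0.566 to 0.580). This was the largest share of the 3 in either library, and its log2 ratio was 0.66 (0.63 to 0.69), a ratio of 1.58. Copia-1_DYa-I had 12657 and 5958 reads, 2420 and 1223 CPM. Its share was 0.242% (0.238 to 0.246) in pelo1/+ and 0.122% (0.119 to 0.125) in peloPB60/1, with a log2 ratio of -0.99 (-1.03 to -0.94), a ratio of 0.505. It was the lowest of the 3 in both libraries.

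**Figure D1:**
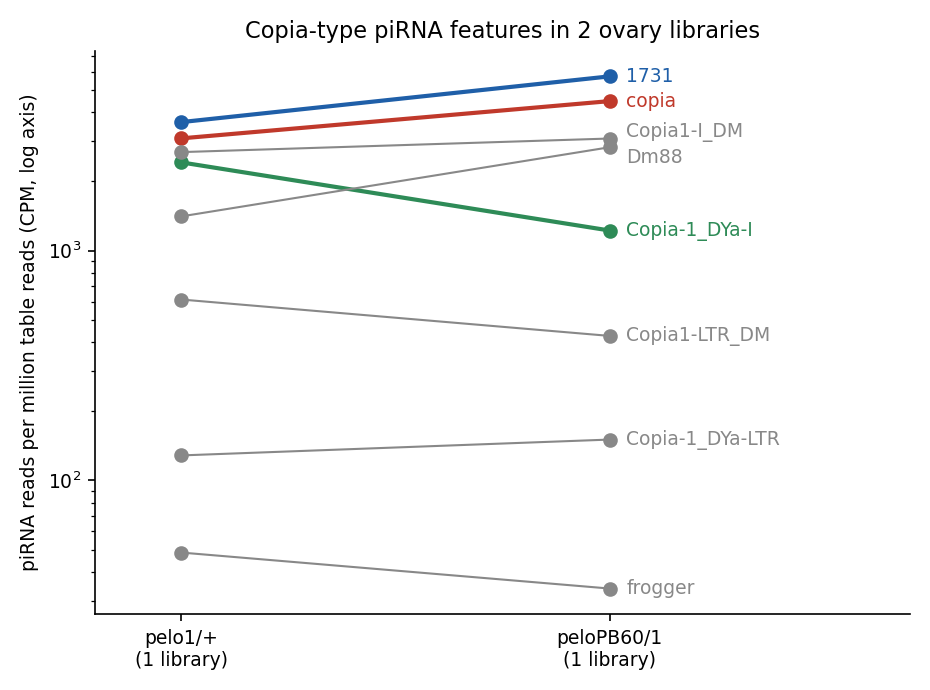
Reads in 1000000 reads of the table (CPM, log axis) of the 3 members (coloured) and of 5 other Copia-type features (grey) in the pelo1/+ and peloPB60/1 libraries, 1 library each, with no error bars. copia and 1731 run upward to 4471 and 5729 CPM, and Copia-1_DYa-I runs downward from 2420 to 1223 CPM.

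Calls required 50 summed reads, a difference of 2-fold or more and a counting interval clear of no difference. By this rule 0 of the 3 members were called. Among all 438 features past the filter 18.7% were called, of which 13 were higher (2.97% of those tested) and 69 lower (15.8%). At a size of 1.5-fold, 1731 was counted as higher, as were 8.45% of all features tested, and Copia-1_DYa-I as lower, as were 28.3% of them, while copia lay just under that size. The median log2 ratio of all 438 features was -0.22. Relative to that median, copia stood at 0.75, 1731 at 0.88 and Copia-1_DYa-I at -0.77. copia lay above 90.0% of the tested features, 1731 above 92.9% and Copia-1_DYa-I above 15.8%. This order is the same whatever total the reads are divided by.

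**Figure D2:**
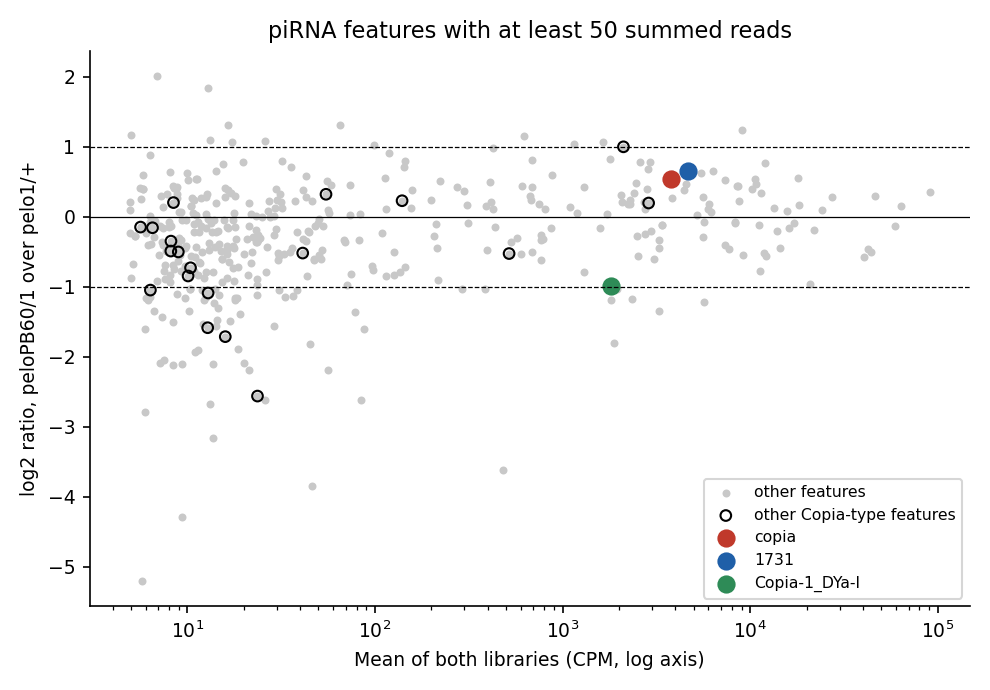
The log2 ratio of peloPB60/1 over pelo1/+ against the mean CPM of both libraries (log axis) for the 438 piRNA features with at least 50 summed reads. The 3 members are coloured, other Copia-type features are open circles, and dashed lines mark 2-fold. copia (0.54) and 1731 (0.66) lie in the upper part of the abundant features and Copia-1_DYa-I (-0.99) lies just inside the lower line.

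The size of each difference depended on the scaling, and its direction did not in any of the 8 other totals or factors tried. copia ran from 0.30 with the miRNA total to 1.03 with upper quartiles, and 1731 from 0.42 to 1.16. Both passed 2-fold with upper quartiles only. Copia-1_DYa-I ran from -1.22 with the miRNA total to -0.49 with upper quartiles. The 2-fold size was reached by Copia-1_DYa-I when reads were divided by the summed total of piRNA and miRNA tables (-1.05), by the miRNA total, and by the piRNA total without the 10 most abundant features (-1.002). These factors moved the median of all tested features to between -0.45 and 0.28. The split of all called features, 13 higher and 69 lower, became 17 and 47 with TMM factors, 50 and 31 with upper quartiles, 5 and 101 with the miRNA total, and 30 and 39 with the miRNA total without miR-989.

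**Figure D3:**
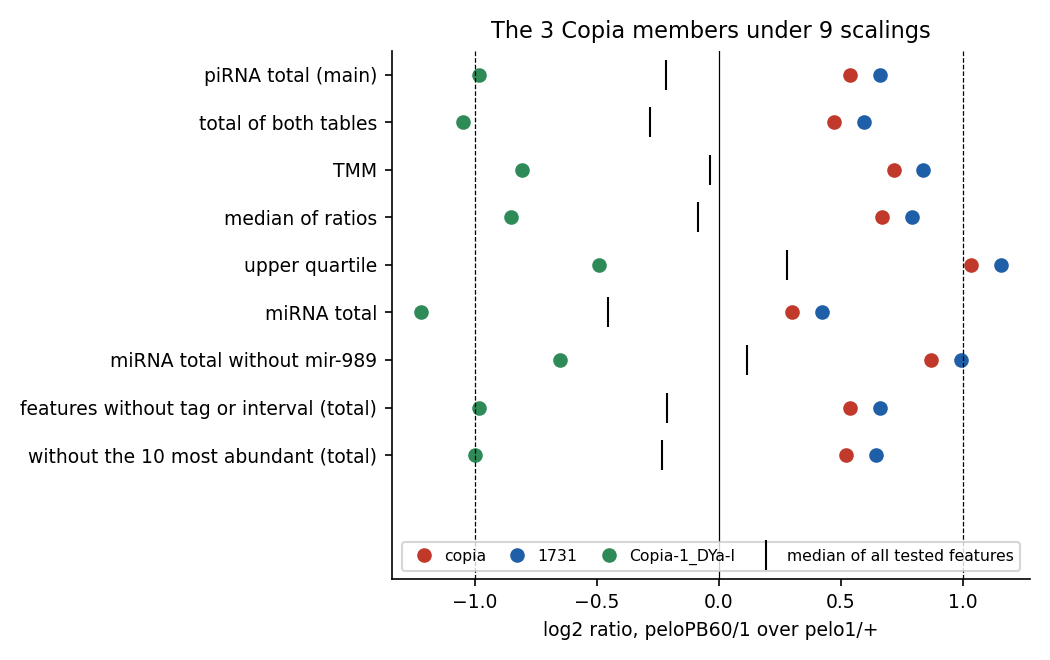
The log2 ratio of peloPB60/1 over pelo1/+ of the 3 members (points) and the median of all 438 tested features (black ticks) under 9 ways of scaling the 2 libraries. Dashed lines mark 2-fold. All points of a row shift together, with copia and 1731 above 0 and Copia-1_DYa-I below 0 in every row.

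Ratios between the members within a library need no scaling. They are ratios of reads and are not corrected for length. In pelo1/+ there were 0.850 reads of copia per read of 1731 (95% interval 0.832 to 0.868), and in peloPB60/1 there were 0.780 (0.767 to 0.794). The ratio in peloPB60/1 was thus 0.919 of that in pelo1/+ (0.894 to 0.944) and differed 1.09-fold. With every copia-named feature added to copia, Copia-1_DYa-I among them, the ratio was 2.53 and 1.66 and the log2 difference -0.61 in place of -0.12. Against Copia-1_DYa-I the proportions differed much more. Reads of copia per read of Copia-1_DYa-I were 1.27 (1.24 to 1.30) in pelo1/+ and 3.66 (3.55 to 3.76) in peloPB60/1, a 2.88-fold difference (2.77 to 2.98). For 1731 the same ratio was 1.497 (1.46 to 1.53) and 4.69 (4.56 to 4.82), a 3.13-fold difference (3.02 to 3.25). Of the 3 pairs compared, the pairs with Copia-1_DYa-I exceeded 2-fold and the pair of copia and 1731 did not. Pooled, the 3 members held 0.912% (0.904 to 0.920) of piRNA reads in pelo1/+ and 1.14% (1.13 to 1.15) in peloPB60/1, a log2 ratio of 0.32, in which opposite directions were summed.

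By reads, copia ranked 62nd in pelo1/+ and 53rd in peloPB60/1, 1731 ranked 55th and 46th, and Copia-1_DYa-I ranked 74th and 89th. copia stood between the LTR elements springer and micropia in pelo1/+, with 16669 and 15861 reads, and between micropia and diver in peloPB60/1, with 22531 and 20344. 1731 stood between gypsy12 (18957 reads) and gtwin (18627) in pelo1/+, and between gtwin (28470) and gypsy4 (26981) in peloPB60/1. 1731 and gypsy12 were 12 reads apart, which counting error does not resolve. Copia-1_DYa-I stood between gypsy10 (12705 reads) and the DNA transposon Bari1 (11461) in pelo1/+. In peloPB60/1 it stood between gypsy8 (6233) and Bica_I (5946), the latter 12 reads below it.

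The annotated genome gives copia and 1731 different structures. The Ensembl annotation of BDGP6 lists 39 copies of copia with a median length of 5145 bp, and 32 of them reach 4000 bp. It lists 16 copies of 1731 with a median length of 301.5 bp, of which 5 reach 4000 bp, so most annotated copies of 1731 are fragments. That limit was chosen after the lengths were seen, and the build differs from BDGP5, the one named in the submitters' processing notes. The annotated copies add up to 168.8 kb for copia and 28.4 kb for 1731. The sum for 1731 includes 1 copy on Y, which females lack. Per kb of annotated sequence, 1731 had 127.7 CPM in pelo1/+ and 201.9 CPM in peloPB60/1, against 18.2 and 26.5 CPM for copia. Set per kb of the median copy of at least 4000 bp (4648 bp for 1731 and 5146 bp for copia), the levels were 779 and 1233 CPM for 1731 and 598 and 869 CPM for copia. 1731 was therefore 1.30 times as high as copia per element length in pelo1/+ and 1.42 times in peloPB60/1. Per annotated kb the factor was 6.999 and 7.62. Copies that the assembly lacks, or that these strains carry elsewhere, do not enter these lengths, and a length for Copia-1_DYa-I was not used here.

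The tables listed 32 other Copia-type features, which place the 3 members in a wider set. Besides copia and 1731, 4 have names without the tag of another species: Copia1-I_DM and Copia1-LTR_DM, whose names mark the internal part and the LTR of an element listed for D. melanogaster, and the elements Dm88 and frogger. Dm88 had 7366 reads in pelo1/+ and 13726 in peloPB60/1, or 1409 and 2817 CPM. Its log2 ratio was 1.00 (95% interval 0.96 to 1.04), which before rounding lay just under 2-fold. It was called higher with TMM factors (1.18), median-of-ratios factors (1.13), upper quartiles (1.495), the miRNA total without miR-989 (1.33) and the total of features without tag or interval (1.00). Dm88 per read of copia was 0.458 and 0.630, a 1.38-fold difference (1.33 to 1.43), so its difference exceeded that of copia beyond counting error. frogger was rare, with 254 and 165 reads and a log2 ratio of -0.52 (-0.81 to -0.23). The annotation lists 32 copies of Dm88, 3 of them of at least 4000 bp, and 2 copies of frogger, the longer of 2483 bp. Per annotated kb, Dm88 was at 24.0 and 48.1 CPM and frogger at 12.2 and 8.53 CPM. None of the 39 annotated copies of copia is on Y, which females lack. 1731 and Dm88 have 1 each there, and their annotated kb include it.

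Copia1-I_DM had 14026 and 14977 reads, a log2 ratio of 0.20 (0.16 to 0.23), which turned to -0.041 with the miRNA total. Copia1-LTR_DM had 3204 and 2073 reads, a log2 ratio of -0.53 (-0.61 to -0.45). The LTR of this element thus took 18.6% (18.0 to 19.2) of the reads of its parts in pelo1/+ and 12.2% (11.7 to 12.7) in peloPB60/1. For the element tagged DYa the order was the opposite. Its LTR, Copia-1_DYa-LTR, had 672 and 734 reads (log2 ratio 0.23, 0.08 to 0.38, or -0.0084 with the miRNA total), while the internal part was lower. The LTR took 5.04% (4.68 to 5.43) of the reads in pelo1/+ and 10.97% (10.2 to 11.7) in peloPB60/1. The reads of LTR per read of internal part were 0.606 (0.570 to 0.644) of the pelo1/+ value for Copia1 and 2.32 times (2.08 to 2.59) for Copia-1_DYa. The lower share of Copia-1_DYa-I was thus not seen in its LTR. Reads of related sequences may have been divided between copia, Copia1-I_DM and Copia-1_DYa-I, and how that was done is not given in the sources used here. copia per read of Copia1-I_DM was 1.15 and 1.45, a 1.27-fold difference (1.23 to 1.31).

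All 35 Copia-type features together held 1.42% (1.41 to 1.43) of piRNA reads in pelo1/+ and 1.81% (1.80 to 1.82) in peloPB60/1. 1731 made up 25.4% of these reads in pelo1/+ and 31.7% in peloPB60/1, and copia 21.6% and 24.7%. Copia-1_DYa-I made up 17.0% and 6.76%, and Dm88 9.89% and 15.6%. Within the superfamily, 1731 was the first feature by reads in both libraries, and Copia-1_DYa-I lay above Dm88 in pelo1/+ and below it in peloPB60/1.

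**Figure D4:**
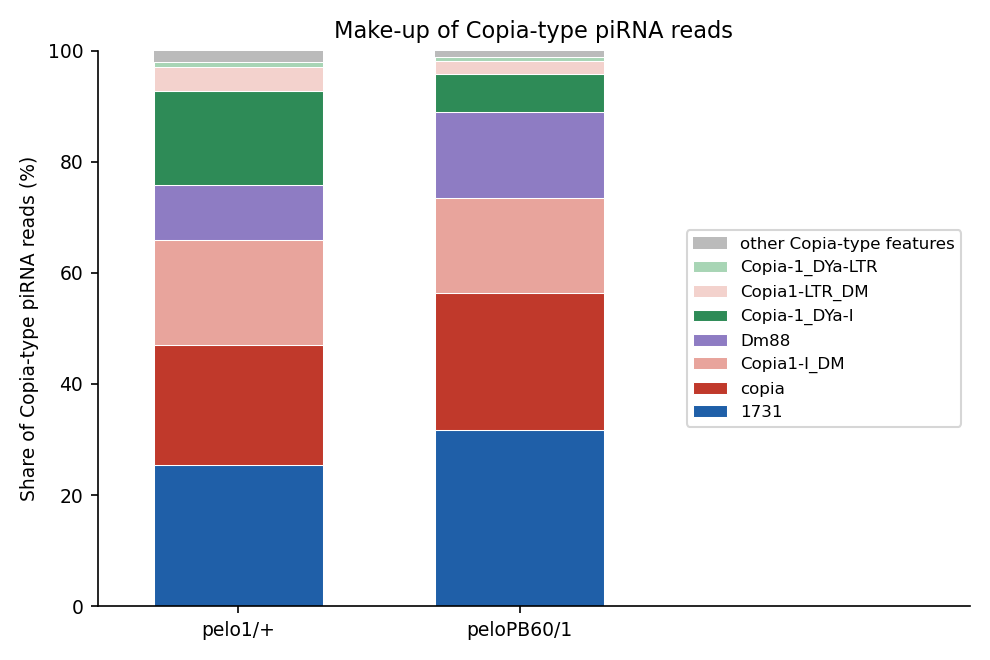
Share of all Copia-type piRNA reads (percent) taken by each feature in pelo1/+ and peloPB60/1. 1731 and copia widen to 31.7% and 24.7%, Dm88 widens to 15.6%, and Copia-1_DYa-I narrows from 17.0% to 6.76%.

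Copia-type features with and without a species tag were counted apart. Of the 6 features without a species tag, 0 were called, 4 had a log2 ratio above 0 and 2 below, and the median was 0.37. Among all 153 tested features without tag or interval, 77 were above 0 and 76 below, with a median of 0.02, 3 called higher and 12 lower. Of the 29 Copia-type features with the tag of another species, 16 passed the filter. Of these, 3 were above 0 and 13 below, the median was -0.62 and 5 were called lower, with 0 called higher. Among all 233 tagged features tested 20.6% were called lower, 63 were above 0 and 170 below, and the median was -0.36, so more tagged features lay below 0 than above in the tables as a whole. The 5 were Copia2-I_Dpse with 212 and 33 reads (log2 ratio -2.56), Copia-2_DWil-I with 128 and 36 (-1.71), Copia-1_DWil-I with 101 and 31 (-1.59), Copia1-I_Dmoj with 92 and 40 (-1.09) and Copia2-I_Dmoj with 45 and 20 (-1.05). All 5 are internal parts with few reads, and the number called lower ran from 3 (TMM, median-of-ratios and upper-quartile factors, and the miRNA total without miR-989) to 7 (miRNA total). With upper quartiles 9 of the 16 lay below 0, and with the miRNA total 15 did and the untagged features split 3 above and 3 below. Copia-1_DYa-I had far more reads than any of them. Of 38 tested features tagged DYa or Dya, 8 were called lower and 1 higher, with a median of -0.24.

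The remaining tagged features that passed the filter were Copia-6_DWil-I (log2 ratio 0.32), Copia-5_DWil-I (0.20), Copia-1_DVir-I (-0.15), Copia-3_DWil-I (-0.16), Copia-1_DPer-I (-0.35), Copia1-I_Dpse (-0.49), Copia-1-I_DY (-0.50), Copia-1_DTa-I (-0.73) and Copia-4_DWil-I (-0.85). The first had 255 and 297 reads and each of the others fewer than 100 in either library. Of the 13 tagged LTR features, 12 had 4 or fewer reads summed over both libraries, and Copia-1_DYa-LTR alone passed the filter. A count of 0 allows up to 3 reads, which is 0.574 CPM in pelo1/+ and 0.616 CPM in peloPB60/1, so these LTRs were at the limit of detection. Copia-4_DGri-I, with 22 and 26 reads, also missed the filter.

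Other LTR elements were listed for comparison in 4 lists, by superfamily and by the ovarian compartment in which they are mainly known to be expressed. Of the 39 elements found, 25 had a log2 ratio above 0 and 14 below, the median was 0.15, and 3 were called, all lower. Among all 438 features tested 2.97% were called higher and 15.8% lower. copia and 1731 lay toward the upper end of the range of the 39, which ran from -1.81 to 0.82. Among 19 gypsy-type elements of the germline the median was 0.12, with 2 called lower. Stalker2 was the highest (0.79), invader6 the lowest (-1.81) and opus, at -0.09, the most abundant. The 9 gypsy-type elements of follicle cells, some of them able to form virus-like particles, had a median of 0.39 and 0 calls. Tabor was the most abundant (0.52), ZAM the highest (0.82) and gypsy the lowest (-0.29). Tirant, also named for this list, had no feature of exactly that name and was left out. TIRANT_LTR had 3 reads in pelo1/+ and 0 in peloPB60/1. A feature with run-together names, TART-CTART-ATART-BTirant, had 4646 and 351 reads (log2 ratio -3.62), which cannot be assigned to Tirant alone. Of the 4 elements listed for both compartments, 412 was the most abundant and highest (0.56) and 297 the lowest (-0.56), with a median of 0.31 and 0 calls. The 7 BEL-type elements had a median of -0.44 and 1 call. Max-element was the most abundant (0.15), diver the highest (0.27) and rooA, called lower, was at -1.22. With the miRNA total the median of the 39 was -0.08, with 15 above 0 and 24 below. With upper quartiles 11 of them were called higher and 1 lower, beside 50 higher and 31 lower among all 438 features.

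**Figure D5:**
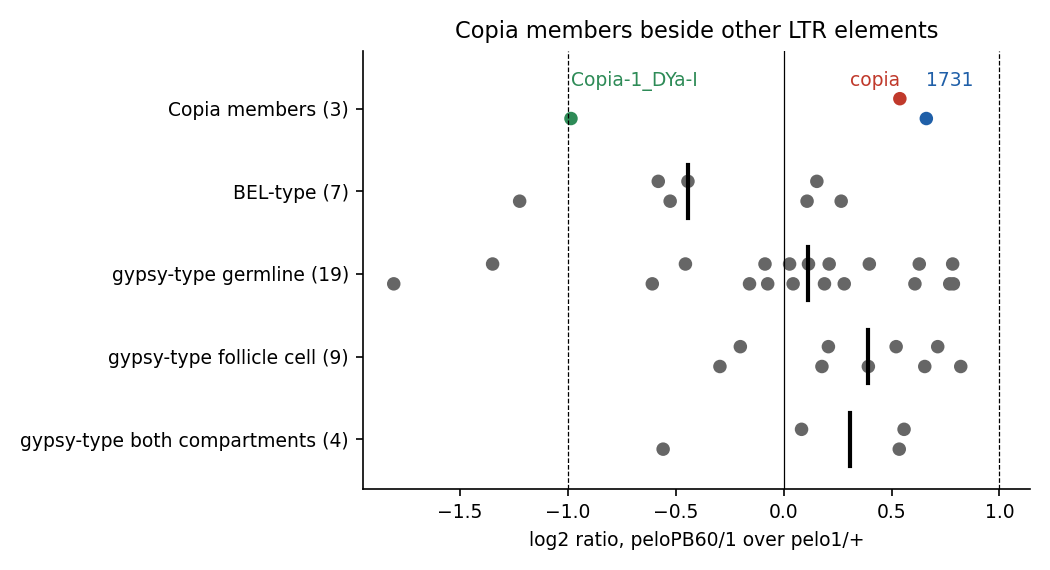
The log2 ratio of peloPB60/1 over pelo1/+ for the 3 members and for the elements of 4 LTR lists (1 point per element, vertical offset without meaning, number of elements in brackets). Black bars are list medians and dashed lines mark 2-fold. copia (0.54) and 1731 (0.66) lie in the upper part of the gypsy-type lists, and Copia-1_DYa-I (-0.99) lies below all elements of the follicle cell and both-compartment lists and above invader3 (-1.35) and invader6 (-1.81) of the germline list.

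Among the 41 elements made up of these lists with copia and 1731, copia ranked 27th by reads in pelo1/+ and 22nd in peloPB60/1, and 1731 ranked 23rd and 18th. The features with the log2 ratio most like that of each member were sought among 122 features with at least 1000 summed reads and neither a species tag nor an interval name. The likeness rests on 1 ratio over 2 libraries. Nearest to copia were the gypsy-type element mdg1, 0.0028 apart, NOMAD_I, 0.011 apart, and Tabor, 0.017 apart. Nearest to 1731 were gypsy5, Bari1 and the gypsy-type element HMS-Beagle, at log2 ratios of 0.65, 0.68 and 0.63. Nearest to Copia-1_DYa-I were TAHRE, a telomeric retrotransposon, the LTR element Osvaldo and gypsy7, at -0.96, -1.03 and -1.03. The latter 2 were called lower and so lay just beyond 2-fold, whereas TAHRE and Copia-1_DYa-I lay just inside it.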

How the data were processed

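Small RNAs of 18 to 30 nt from ovaries were sequenced from 1 library of pelo1/+ and 1 of peloPB60/1, grouped by the genotype label. The deposited files hold raw read counts per feature, as their whole values show, with features of 0 reads not listed. No selection by read length was made here, so every read counted in the piRNA tables is called a piRNA read. Where only 1 library listed a feature, the other was set to 0. Bowtie 0.12.7 and BDGP5 are named, without roles, in the submitters' processing notes. Mismatches, strand, total reads and the handling of reads matching several features are not stated there or in the labels. Such handling can divide reads between related elements.

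Dividing by each table's total gave CPM. For log2 ratios 0.5 was added to each count, and 95% Clopper-Pearson intervals, conditional on the summed reads, were taken from the counts as deposited. Changes of ratios between elements have conditional intervals of the odds ratio. Computations used Python 3.11.15 and scipy 1.17.1. Scaling factors came from edgeR 4.0.16 (TMM) and DESeq2 1.42.0 (median of ratios), which served for nothing else. The functions were tested on simulated data. Sequencing reads carry no molecular identifiers here, so intervals cover counting error only.

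The members and lists were chosen with earlier results of these data known. Features named are the members, all other Copia-type features past the filter, their neighbours by rank and by log2 ratio, and of each LTR list the most abundant, highest and lowest element. Listed names without a feature of exactly that name were ninja, Bel, Tirant, copia2 and Xanthias. Features with a longer name that holds ninja or Tirant were not added to the lists. No sequences were used.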

Additional observations from a re-analysis of the deposited data

How the results depend on the processing

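No paired analysis was possible because the groups hold 1 sample apiece, which also leaves none to omit in turn. Of 109 values under alternatives, 71 kept their direction and side of the threshold, stayed within the counting interval or, for counts of calls, stayed within 1.5 times, 10 passed the 2-fold threshold, 26 moved and 2 changed sign (Copia1-I_DM at -0.041 and Copia-1_DYa-LTR at -0.0084 with the miRNA total). Upper quartiles brought copia to 1.03 and 1731 to 1.16. Copia-1_DYa-I reached -1.05 with the total of both tables, -1.22 with the miRNA total and -1.002 without the 10 most abundant features. The count of all called features, 82, was 115 and 109 with filters of 1 and 10 summed reads, 32 with a filter of 200 summed reads, 161 at 1.5-fold and 19 at 4-fold. At 1.5-fold 2 of the 3 members were called, 1731 higher and Copia-1_DYa-I lower. At that size 8.45% of all 438 tested features were called higher and 28.3% lower. With all copia-named features summed with copia, Copia-1_DYa-I included, reads per read of 1731 were 2.53 in pelo1/+ and 1.66 in peloPB60/1. The same sum without Copia-1_DYa-I gave 2.79 and 6.77 reads per read of Copia-1_DYa-I. With Copia1-I_DM and Copia1-LTR_DM added, copia had a log2 ratio of 0.32, and with its LTR added Copia-1_DYa-I had -0.89. The last 2 sums and the scalings of the features outside the 3 members were alternatives chosen after seeing the data.

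Set among features without tag or interval, to which Copia-1_DYa-I does not itself belong, the ranks in pelo1/+ and peloPB60/1 were 60 and 52 for copia, 54 and 45 for 1731, and 72 and 86 for Copia-1_DYa-I. Set among the listed LTR elements with copia and 1731, where Copia-1_DYa-I was again added from outside, they were 27 and 22, 23 and 18, and 33 and 38. The pooled share in the same libraries was 0.604% and 0.695% without copia, 0.5498% and 0.569% without 1731, and 0.670% and 1.02% without Copia-1_DYa-I. Counts of the members were high enough that counting error was small beside these shifts, and the spread between libraries of a genotype was not measured.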
